A study of Mus musculus with 7 samples.

Results

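*Hdgfl2*, the gene listed in the count files for HRP-2, sits among protein-coding genes on mouse chromosome 17. The genes described here are 10 listed by name among those that flank it. The rule did not use their levels, but the list was made with earlier results of these data known. They are *Stap2*, *Mpnd*, *Sh3gl1*, *Chaf1a* and *Ubxn6* before its start, and *Plin5*, *Lrg1*, *Tnfaip8l1*, *Mydgf* and *Dpp9* beyond its end. *Plin4* and *Sema6b*, which also lie in this stretch, are not on the list. All 10 were among the 25033 gene symbols listed, and 8 of them were among the 11265 genes with enough reads to be tested. The question was whether genes next to a targeted allele differ in level between cells of *HRP-2* wild type and knockout mice. The RNA came from lineage depleted (lin-) bone marrow cells, which are what is left after cells with surface markers of mature blood lineages are removed, of 3 wild type (WT) and 4 knockout (KO) mice. The knockout mice carry C57BL/6N-Hdgfrp2<tm1b (KOMP)Wtsi>/Tcp in every tissue, the label for both alleles of the wild type is Hrp2+/+, and no other allele or agent is named for either genotype. Cells for such preparations came from mice aged 6 to 8 weeks according to the methods. The line was kept by crossing heterozygous mice, and the labels do not say which of the sequenced mice, if any, shared a litter.

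HRP-2 has a PWWP domain that reads methylated histone H3 and an integrase binding domain, a docking site for several nuclear proteins. A targeted allele can alter genes beside it as well as the gene itself. A reporter cassette brings its own regulatory sequence, a deletion can remove an element that a neighbour uses, and DNA close to the allele stays linked to it through breeding. The tm1b type of allele is made from a conditional one with Cre recombinase, lacks a critical exon and keeps a lacZ reporter. Genes near the allele are therefore the place where differences that do not pass through the HRP-2 protein would be looked for.

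The libraries held from 3525665 to 5605158 reads on genes per mouse, and the 10 neighbours together took from 1175 to 2178 of them. Levels are given as CPM, the read count per 1e+06 reads of the library, scaled with the TMM factors of edgeR. Libraries were primed on the poly(A) tail, so each read marks the 3′ end of a transcript. The floor was set at 3 reads, which is from 0.561 to 0.84 CPM depending on the mouse and covers counting error only. The progenitor genes looked for in lin- cells were present, with *Mpo*, the peroxidase of granulocyte precursors, at 5757.6 CPM in WT and 5898.9 CPM in KO cells on average. Of the 9 progenitor genes, 3 had a positive and 6 a negative fitted log2 fold change, with a median of −0.10. The cells were a mixture: 11 of 11 late neutrophil genes had a positive and 6 of 6 macrophage genes a negative fitted log2 fold change, and 0 of these passed the test. Of the other marker lists, 0 genes passed the test either: summed B cell genes ran from 63.2 to 165.5 CPM in WT and 78.7 to 250.9 CPM in KO mice, T and NK cell genes from 158.6 to 172.2 and 104.5 to 197.4 CPM, and adipocyte and endothelial genes from 185.6 to 219.4 and 172.8 to 218.3 CPM. Eosinophil, basophil and mast cell genes ran from 2498.4 to 2609.1 CPM in WT and 1730.8 to 2327.8 CPM in KO mice without overlap. The 4 hemoglobin genes of the erythroid list and *Plin1* of adipocytes were listed at 0 reads. KO replicate 3 stood apart from the other mice, with *Xist*, the RNA of the inactive X chromosome, at 0.561 CPM against 229 to 302.8 CPM elsewhere, and with *Ddx3y* of the Y chromosome at 104.5 CPM. The fold change of each neighbour tested is given below with and without this mouse. Without it, 9 of the 11 late neutrophil genes had a positive and 5 of the 6 macrophage genes a negative log2 fold change. In a mixture such as this, a lower share of 1 cell type and less RNA per cell of that type cannot be told apart.

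The promoter of *Hdgfl2* is shown first because it faces another member of the group. RefSeq places a start of *Hdgfl2* at 56079631 of chromosome 17 on the plus strand, and 1 of 3 starts of *Ubxn6* at 56079333 on the minus strand, 298 bp away. Both 300-base windows, from 250 bases before each start to 50 after it, share 203 bases, from 56079381 to 56079583. They are printed 5′ to 3′ from RefSeq on GRCm38.p6, each on its own strand, with the shared bases in capitals. The *Hdgfl2* window is chr17:56079381-56079680 on the plus strand, and the *Ubxn6* window is chr17:56079284-56079583 on the minus strand.
Hdgfl2: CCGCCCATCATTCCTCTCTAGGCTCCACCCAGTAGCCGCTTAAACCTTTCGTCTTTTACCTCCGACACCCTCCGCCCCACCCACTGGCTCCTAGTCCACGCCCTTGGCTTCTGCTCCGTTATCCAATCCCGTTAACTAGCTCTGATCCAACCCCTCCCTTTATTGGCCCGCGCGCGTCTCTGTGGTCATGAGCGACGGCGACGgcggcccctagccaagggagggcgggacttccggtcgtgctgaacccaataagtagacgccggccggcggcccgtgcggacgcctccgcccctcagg
Ubxn6: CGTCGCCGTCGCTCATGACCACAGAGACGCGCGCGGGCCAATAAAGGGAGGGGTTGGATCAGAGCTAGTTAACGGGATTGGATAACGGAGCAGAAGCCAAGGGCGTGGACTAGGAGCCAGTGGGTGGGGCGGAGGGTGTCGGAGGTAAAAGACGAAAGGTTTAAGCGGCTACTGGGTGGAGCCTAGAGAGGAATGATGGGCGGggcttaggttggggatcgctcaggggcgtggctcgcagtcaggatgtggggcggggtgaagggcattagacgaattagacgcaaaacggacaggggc
The letters TATAAA (the TATA box), the CCAAT box and the letters GGGCGG (the GC box) were searched on both strands, and none of these motifs contains another. The *Hdgfl2* window held CCAAT 3 times, GGGCGG 4 times and TATAAA 0 times, with 28 CG pairs. The facing *Ubxn6* window held CCAAT 2 times and GGGCGG 3 times, with 23 CG pairs. Of all 32851 promoter windows of that length, 37.4% held CCAAT, 35.7% held GGGCGG and 13.6% held TATAAA, and the median number of CG pairs was 7. A match is a description of letters and not of a bound factor. Reads from the 3′ end do not tell which of the *Ubxn6* starts was used.

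Among the neighbours, 8 of 10 had a window with more CG pairs than the median, and the exceptions were *Stap2* and *Lrg1*. Of the 10 members, 7 had a window with CCAAT, 6 one with GGGCGG and 3 one with TATAAA, over 15 windows in all. The promoters of *Chaf1a* and *Lrg1* are printed because these members had the largest positive fold changes among those tested, and because they differ in make-up. The *Chaf1a* window is chr17:56040166-56040465 on the plus strand, with 32 CG pairs, and the *Lrg1* window is chr17:56121897-56122196 on the minus strand, with 2 CG pairs. Capitals mark the TATA, CCAAT and GC box letters or their reverse complements.
Chaf1a: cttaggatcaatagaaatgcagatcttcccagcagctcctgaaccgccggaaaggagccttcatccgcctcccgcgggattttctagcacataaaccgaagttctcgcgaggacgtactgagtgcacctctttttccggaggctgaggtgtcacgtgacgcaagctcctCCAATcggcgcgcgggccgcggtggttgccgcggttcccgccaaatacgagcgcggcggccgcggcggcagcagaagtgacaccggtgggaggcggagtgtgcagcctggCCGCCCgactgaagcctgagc
Lrg1: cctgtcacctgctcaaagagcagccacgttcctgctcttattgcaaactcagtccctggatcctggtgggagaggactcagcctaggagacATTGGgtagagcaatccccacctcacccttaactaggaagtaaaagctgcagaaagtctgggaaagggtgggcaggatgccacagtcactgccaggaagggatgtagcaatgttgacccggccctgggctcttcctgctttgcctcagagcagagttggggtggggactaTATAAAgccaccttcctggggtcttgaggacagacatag

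**Figure D1:**
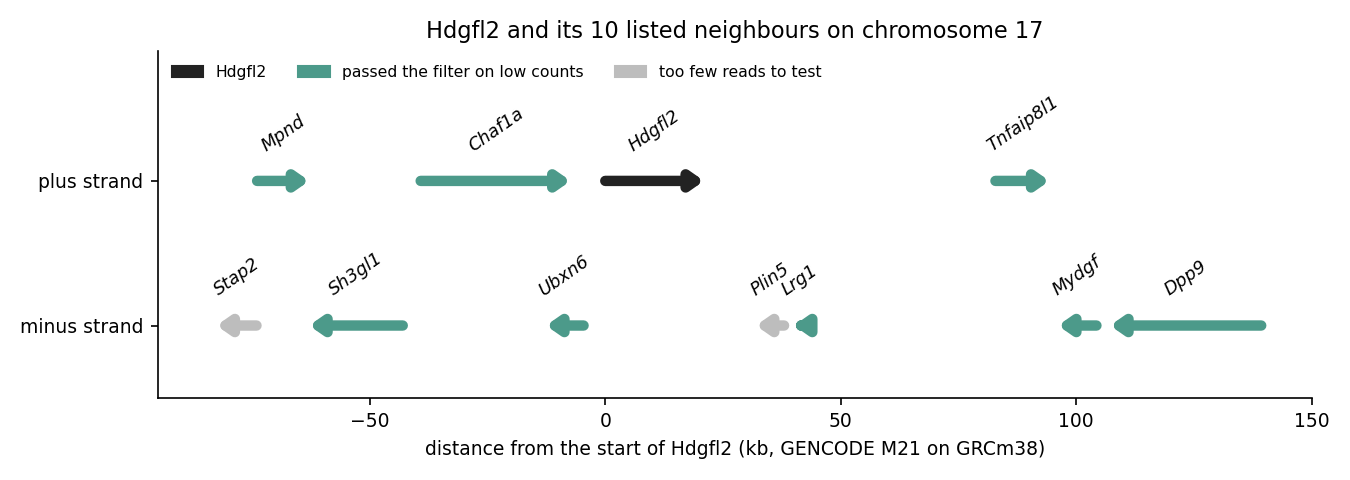
Map of *Hdgfl2* and its 10 listed neighbours, with the distance from the start of *Hdgfl2* in kb on the x axis and the strand on the y axis. Each arrow runs from the start to the end of a gene, drawn to scale in length; 5 neighbours lie before *Hdgfl2* and 5 beyond it, and the 2 grey ones had too few reads to test.

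Positions follow GENCODE M21 on GRCm38, to which the reads were aligned. *Hdgfl2* itself runs from 56079634 to 56100607 on the plus strand. Before it, *Ubxn6* (56067045 to 56075028, minus strand) ended 4.61 kb away, *Chaf1a* (56040439 to 56072289, plus strand) 7.34 kb, *Sh3gl1* (56016750 to 56036635, minus strand) 43 kb and *Mpnd* (56005711 to 56016790, plus strand) 62.8 kb away. *Stap2* (55997077 to 56005584, minus strand) was the farthest on this side at 74 kb. Beyond it, *Plin5* (56111601 to 56117596, minus strand) lay at 11 kb, *Lrg1* (56119678 to 56122001, minus strand) at 19.1 kb and *Tnfaip8l1* (56162477 to 56173955, plus strand) at 61.9 kb. *Mydgf* (56175744 to 56183920, minus strand) lay at 75.1 kb and *Dpp9* (56186807 to 56218905, minus strand) at 86.2 kb. The map of the genes by strand shows that *Chaf1a* and *Ubxn6* run towards each other. Their spans overlapped by 5245 bp in GENCODE M21, of which 4648 bp were exonic in both, and by 982 bp in RefSeq. *Mpnd* and *Sh3gl1* overlapped by 41 bp at their 3′ ends in both annotations. *Tnfaip8l1* and *Mydgf* did not overlap in GENCODE M21 but did by 7380 bp in RefSeq. The strand used for counting is not given in the sources used here, so reads of these pairs may be split between the 2 genes or left uncounted.

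*Hdgfl2* was checked first. Its reads numbered 228, 156 and 168 in the WT mice and 13, 3, 8 and 2 in the KO mice. In CPM this was 46.1 ± 3.42 (SD, n = 3) against 1.29 ± 0.938 (SD, n = 4). Every KO mouse was far below every WT mouse, at a mean of 2.79% of the WT level. The log2 fold change was −5.09 (SE 0.34, 95% interval −5.8 to −4.37, edgeR adjusted p = 1.38e-07). The reads lie at the 3′ end of the transcript, so they count transcripts that reach that end and do not measure the deleted exon itself. *Plin4*, a lipid droplet coat gene whose 3′ end overlaps that of *Hdgfl2* by 17 bp, was listed at 0 reads in all 7 mice. Some genes of other cell types were also listed at exactly 0 in every library, so whether this 0 reflects sampling or the counting is not known.

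None of the 8 neighbours tested passed the study's threshold of an adjusted p under 0.25 in edgeR's quasi-likelihood test, and none passed 0.05. Over all genes the share past 0.25 was 0.0178%, or 2 of 11265. At an unadjusted p under 0.05 the count was also 0 of 8, where 3.63% of all genes lay, and it was 1 of 8 (*Chaf1a*) when WT replicate 1 was left out. DESeq2 and limma-voom called 0 of 8 at an adjusted p under 0.25 as well. The fitted log2 fold change was positive for 4 neighbours and negative for 4, from −0.49 in *Tnfaip8l1* to 0.32 in *Lrg1*, with a median of −0.02 against 0.00 over all genes tested. That median was −0.14 without WT replicate 3 and 0.10 without WT replicate 2. The 8 had adjusted p-values of 0.999 each by edgeR. WT and KO mice were fully separated in CPM for 1 of 8 neighbours, *Chaf1a*, where 5.16% of all genes were separated in either direction and 2.37% with KO higher.

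A p that misses the threshold does not show equal levels, so the intervals are given too. The 95% interval of the log2 fold change included 0 for 8 of 8 neighbours. It lay above −1, a halving of the level, for 7 of 8, and below 1, a doubling, for 8 of 8. Over all 11265 genes 9467 lay above −1 and 9650 below 1. *Tnfaip8l1*, with the fewest reads of the 8, was the neighbour whose interval reached past a halving.

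**Figure D2:**
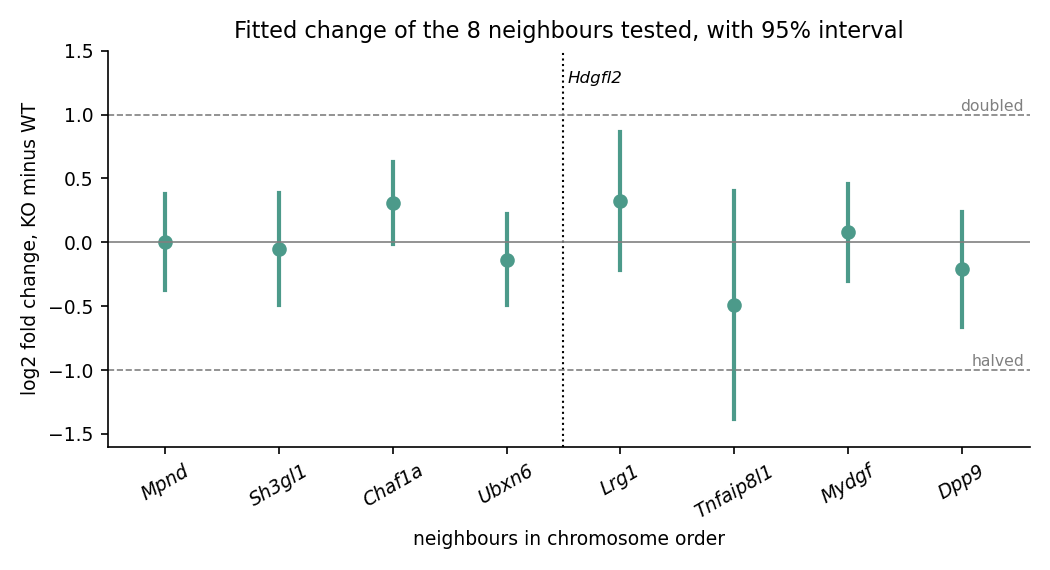
Fitted log2 fold change (KO minus WT, y axis) of the 8 neighbours tested, in chromosome order on the x axis, with points for the estimate and bars for the 95% interval from edgeR's quasi-likelihood fit of 3 WT and 4 KO mice. All 8 bars cross 0, and only the bar of *Tnfaip8l1* reaches past −1, the dashed line that marks a halved level.

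*Chaf1a* encodes the large subunit of chromatin assembly factor 1 (CAF-1), which places histones H3 and H4 on newly copied DNA. Its level was 77.2, 72.5 and 61.9 CPM in the WT mice and 85.3, 80.2, 83.3 and 101.2 CPM in the KO mice. All 4 KO mice lay above all 3 WT mice, although the gap between the highest WT and the lowest KO mouse was small beside the spread within each genotype. The means were 70.6 ± 7.84 CPM (SD, n = 3) and 87.5 ± 9.34 CPM (SD, n = 4), a ratio of 1.24 in the fit. The log2 fold change was 0.31 (SE 0.15, 95% interval −0.01 to 0.63), with p-values of 0.0567 unadjusted and 0.999 adjusted by edgeR, rank 473 of the 11265 genes. An exact permutation test (two-sided, on log2(CPM + 0.5)) gave p = 0.0286, which 35 splits of the 7 mice cannot go below, without adjustment for the 8 neighbours so tested. KO replicate 4, at 101.2 CPM, was the highest mouse. Without KO replicate 3 the log2 fold change was 0.33.

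Because *Chaf1a* shares its 3′ end with *Ubxn6*, the 2 genes were also summed, a sum chosen after their values were seen. *Ubxn6* encodes a UBX domain cofactor of the ATPase VCP, which extracts ubiquitinated proteins for degradation. Its level was 56.4, 65.0 and 46.8 CPM in the WT mice and 51.7, 51.5, 45.8 and 55.1 CPM in the KO mice. The KO mice lay within or just below the range of the WT mice, which was the wider range. The means were 56.0 ± 9.1 CPM (SD, n = 3) and 51.0 ± 3.85 CPM (SD, n = 4), with a log2 fold change of −0.14 (SE 0.17, 95% interval −0.49 to 0.22). The sum of both genes was 133.6, 137.5 and 108.7 CPM in WT and 137, 131.7, 129.1 and 156.2 CPM in KO mice. For the sum the genotypes overlapped, at 126.6 ± 15.6 CPM (SD, n = 3) and 138.5 ± 12.2 CPM (SD, n = 4), with a log2 ratio of means of 0.13 (two-sided exact permutation test, p = 0.486). How the authors' counting divided reads between the 2 genes was not tested.

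*Ubxn6* is also the neighbour whose facing start shares the printed promoter bases with *Hdgfl2*. Whether the allele acts on that start was not tested, since the start used is not known from these reads. Its log2 fold change was −0.09 without KO replicate 3, −0.02 without WT replicate 2 and −0.25 without WT replicate 3. The exact permutation test of its values gave p = 0.371.

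**Figure D3:**
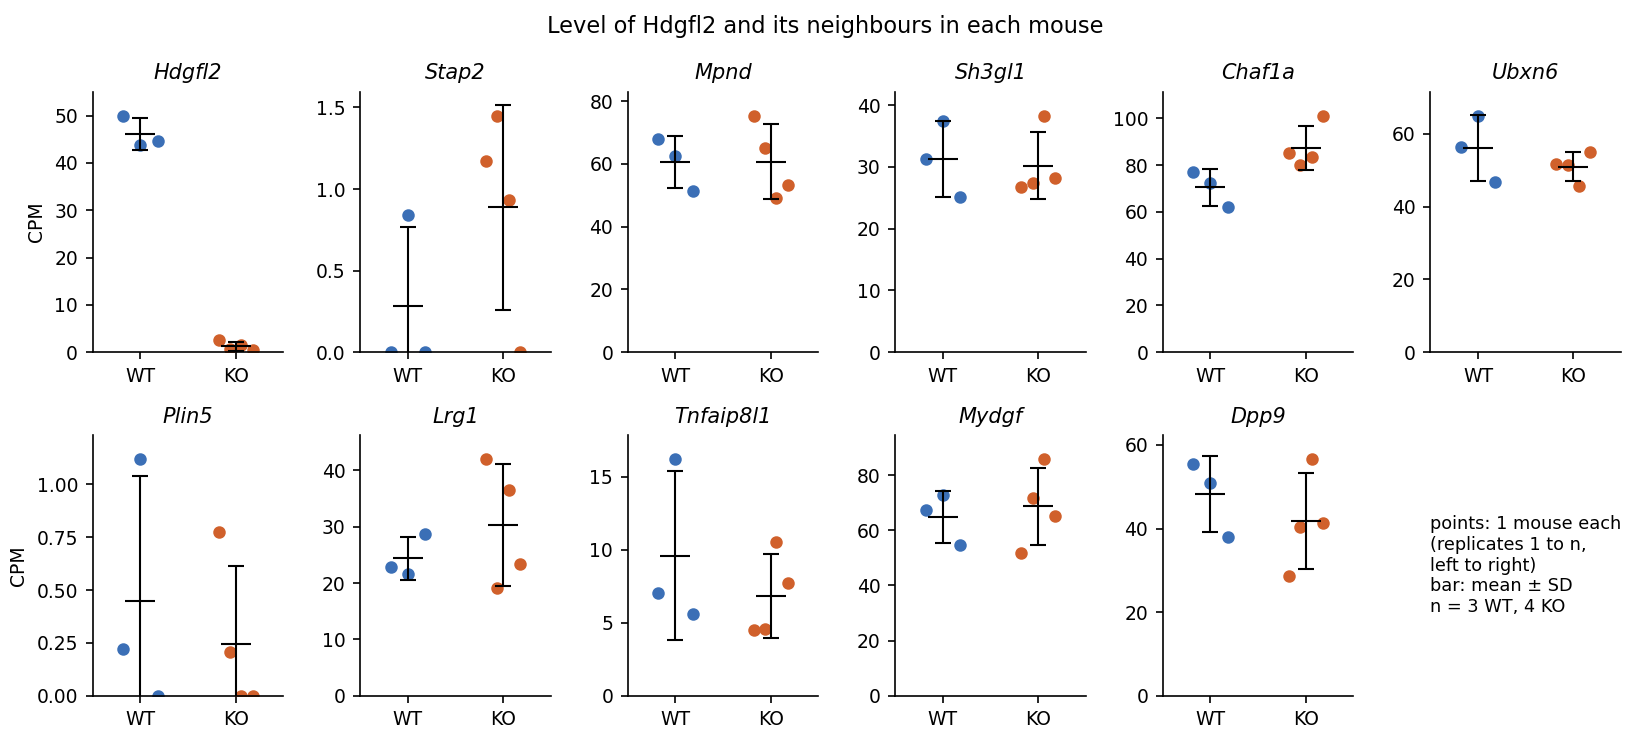
Level in CPM (y axis, a separate linear scale from 0 in each panel) of *Hdgfl2* and its 10 neighbours in each mouse, WT at left and KO at right. Points are mice, bars the mean ± SD of 3 WT and 4 KO mice; *Hdgfl2* drops from about 46.1 to 1.29 CPM, *Chaf1a* is the neighbour above the floor without overlap, and *Stap2* and *Plin5* stay under 2 CPM.

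*Sh3gl1* and *Mpnd* lie farther before *Hdgfl2*. *Sh3gl1* encodes endophilin A2, which bends membranes during endocytosis, and its human counterpart was found as a fusion partner of MLL in leukemia. Its level was 31.2, 37.5 and 25.2 CPM in WT and 26.8, 27.4, 38.3 and 28.2 CPM in KO mice. KO replicates 1, 2 and 4 lay close together and KO replicate 3 lay above them and above all WT mice. The log2 fold change was −0.05 (SE 0.21, 95% interval −0.49 to 0.39, unadjusted p = 0.814 in edgeR's quasi-likelihood test). Without KO replicate 3 it was −0.19, without KO replicate 1 it was 0.01 and without WT replicate 2 it was 0.10, so its sign was not stable.

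*Mpnd* encodes a protein with a JAMM metalloprotease-like domain. Its level was 67.8, 62.4 and 51.5 CPM in WT and 75.4, 65.0, 49.1 and 53.3 CPM in KO mice. The KO mice spanned the whole WT range, and the means were nearly equal at 60.6 ± 8.28 CPM (SD, n = 3) and 60.7 ± 11.9 CPM (SD, n = 4). The log2 fold change was 0.00 (SE 0.18, 95% interval −0.37 to 0.38), and 0.09 without KO replicate 3. The sum of *Mpnd* and *Sh3gl1*, whose 3′ ends also meet, was 91.9 ± 13.1 CPM (SD, n = 3) in WT and 90.9 ± 8.78 CPM (SD, n = 4) in KO mice, or 92.1 ± 10.4 CPM (SD, n = 3) without KO replicate 3.

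*Stap2*, an adaptor protein with a PH and an SH2 domain that binds STAT factors, was near the floor. It had 0, 3 and 0 reads in the WT mice and 6, 7, 5 and 0 reads in the KO mice. That is 3 reads in 1 of 3 WT mice and 18 reads in 3 of 4 KO mice, and the KO mouse without reads lay level with 2 WT mice. Scaled to depth, the KO to WT ratio of the summed reads was 3.69, with an exact binomial 95% interval of 1.08 to 19.6 that covers counting error only and not the spread between mice. When the filter on low counts was omitted, its adjusted p was 0.949 in edgeR's quasi-likelihood test.

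Beyond *Hdgfl2*, *Plin5* was also near the floor. It encodes a lipid droplet coat protein known from heart, muscle and other tissues that burn fat. Its reads numbered 1, 4 and 0 in WT and 4, 1, 0 and 0 in KO mice, 5 in each genotype. The depth-scaled ratio was 0.615 with an exact binomial 95% interval of 0.142 to 2.67. That interval covers counting error only and is wide, so differences in *Plin5* inside it were not detectable at this depth.

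*Lrg1* encodes a secreted leucine-rich glycoprotein made by the liver and stored in neutrophil granules. Its level was 22.8, 21.6 and 28.7 CPM in WT and 42.0, 19.1, 36.6 and 23.4 CPM in KO mice. KO replicates 1 and 3 lay above all WT mice, whereas KO replicate 2 was the lowest mouse. The means were 24.4 ± 3.81 CPM (SD, n = 3) and 30.3 ± 10.8 CPM (SD, n = 4), and the log2 fold change was 0.32 (SE 0.26, 95% interval −0.22 to 0.86, unadjusted p = 0.232 in edgeR's quasi-likelihood test). Without KO replicate 3 it was 0.21, without KO replicate 1 it was 0.12 and without KO replicate 2 it was 0.49.

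The summed level of the 11 late neutrophil genes, which are *Ly6g*, *Ltf*, *Camp*, *Ngp*, *Retnlg*, *Mmp8*, *Mmp9*, *S100a8*, *S100a9*, *Cxcr2* and *Lcn2*, was 8023, 8860.6 and 11169.2 CPM in WT mice. In KO mice it was 15987.1, 9104.7, 25309.7 and 11820.7 CPM. The same KO mice, replicates 1 and 3, were highest in both, though in opposite order, and WT replicate 3 was the highest WT mouse in both. KO replicate 4 had a higher sum than every WT mouse but less *Lrg1* than WT replicate 3. KO replicate 2 had a higher sum than WT replicates 1 and 2 but the least *Lrg1* of all. Of the 11 genes, 11 had a positive log2 fold change with a median of 0.75, none was at 0 reads and 0 passed the test. Without KO replicate 3 the median was 0.24, with 9 of 11 positive. The part of the neutrophil genes in the *Lrg1* values was not tested.

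**Figure D4:**
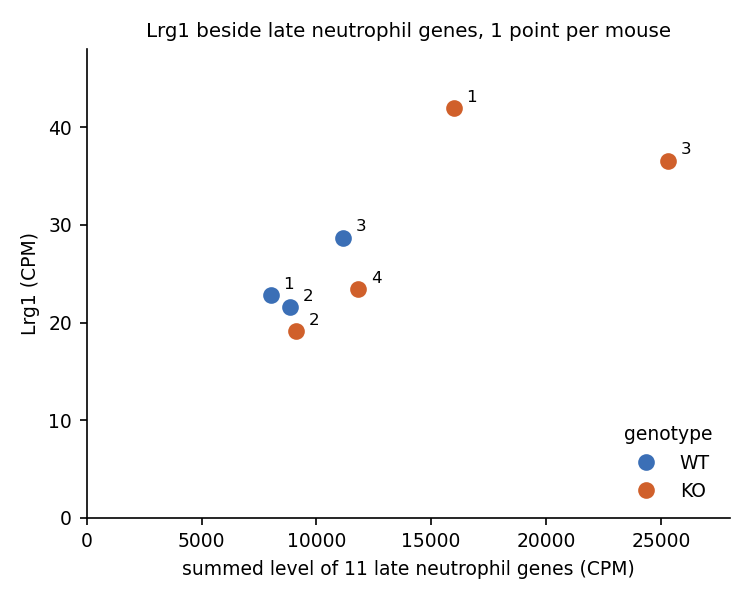
Level of *Lrg1* (CPM, y axis) beside the summed level of 11 late neutrophil genes (CPM, x axis), 1 point per mouse with its replicate number, in blue for WT and orange for KO. KO replicates 1 and 3 hold the highest values on both axes, and the other 5 mice lie between 19.1 and 28.7 CPM of *Lrg1*.

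*Tnfaip8l1*, also called TIPE1, belongs to a family of proteins that carry phospholipid signals and regulate cell death. Its level was 7.02, 16.2 and 5.58 CPM in WT and 4.47, 4.57, 10.5 and 7.72 CPM in KO mice. WT replicate 2 lay well above the other mice, and the genotypes overlapped. The means were 9.61 ± 5.78 CPM (SD, n = 3) and 6.81 ± 2.87 CPM (SD, n = 4), with a log2 fold change of −0.49 (SE 0.42, 95% interval −1.38 to 0.40). Without WT replicate 2 the log2 fold change was 0.11, so its direction rested on that mouse, and without KO replicate 3 it was −0.78.

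*Mydgf* encodes a growth factor secreted by monocytes and macrophages. Its level was 67.4, 72.8 and 54.5 CPM in WT and 51.9, 71.7, 85.8 and 65.3 CPM in KO mice. KO mice held both the lowest and the highest value. The log2 fold change was 0.08 (SE 0.18, 95% interval −0.30 to 0.46), and −0.04 without KO replicate 3. The summed level of 6 macrophage genes, *C1qa*, *C1qb*, *C1qc*, *Adgre1*, *Vcam1* and *Cd5l*, ran from 303.4 to 371.8 CPM in WT and from 203.1 to 262.3 CPM in KO mice, without overlap, while 0 of the 6 passed the test and none was at 0 reads. *Vcam1* was the largest part of the sum, at 188 CPM in WT and 148.5 CPM in KO mice on average. Singly, 5 of the 6 did not overlap, where 5.16% of all genes did not, and *Adgre1* overlapped with a log2 fold change of −0.01. The mean of *Mydgf* was 64.9 ± 9.41 CPM (SD, n = 3) in WT and 68.7 ± 14.1 CPM (SD, n = 4) in KO mice. The part of the macrophage genes in these values was not tested.

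*Dpp9* encodes a cytosolic dipeptidyl peptidase that restrains the NLRP1 inflammasome. Its level was 55.5, 51.0 and 38.0 CPM in WT and 28.6, 40.3, 56.6 and 41.4 CPM in KO mice. KO replicate 1 was the lowest and KO replicate 3 the highest of the 7 mice. The means were 48.2 ± 9.09 CPM (SD, n = 3) and 41.7 ± 11.5 CPM (SD, n = 4), with a log2 fold change of −0.21 (SE 0.22, 95% interval −0.66 to 0.24, unadjusted p = 0.348 in edgeR's quasi-likelihood test). Without KO replicate 3 it was −0.39 and without WT replicate 3 −0.35, whereas it was −0.06 without KO replicate 1 and −0.08 without WT replicate 1. *Sh3gl1*, *Mydgf* and *Dpp9* each had their highest level of all 7 mice in KO replicate 3. That library stood apart in *Xist* and *Ddx3y*, and it also had the most reads on genes and the highest summed late neutrophil level. How many of all genes tested were highest in this mouse was not counted, and a cause was not tested.

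The listed neighbours were then set beside every annotated gene within 1 Mb of either end of *Hdgfl2*, found by position alone. GENCODE M21 places 82 genes there, 64 were listed in the files, 11 of these had no reads, and 39 were tested. At an adjusted p under 0.25 edgeR called 0 of 39, and at an unadjusted p under 0.05 also 0 of 39. The fitted log2 fold change was positive for 21 and negative for 18, with a median of 0.01 and a range from −0.67 in *Gm11110* to 0.63 in *Sema6b*. Both ends of this range were genes with few reads and wide intervals. *Sema6b*, a transmembrane semaphorin that lies between *Lrg1* and *Tnfaip8l1*, was at 3.45 ± 2.0 CPM (SD, n = 3) in WT and 5.43 ± 0.356 CPM (SD, n = 4) in KO mice, with an edgeR p of 0.205 before adjustment. *Chaf1a* was the 1 gene of the 39 without overlap between genotypes, or 2.56%. Among the other 543 tested genes of chromosome 17, WT and KO mice were separated for 37, or 6.81%, and 24 had an unadjusted p under 0.05, 8 higher and 16 lower, with 0 past an adjusted p of 0.25 by edgeR. These genes share libraries and are not independent, so the shares are descriptions.

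**Figure D5:**
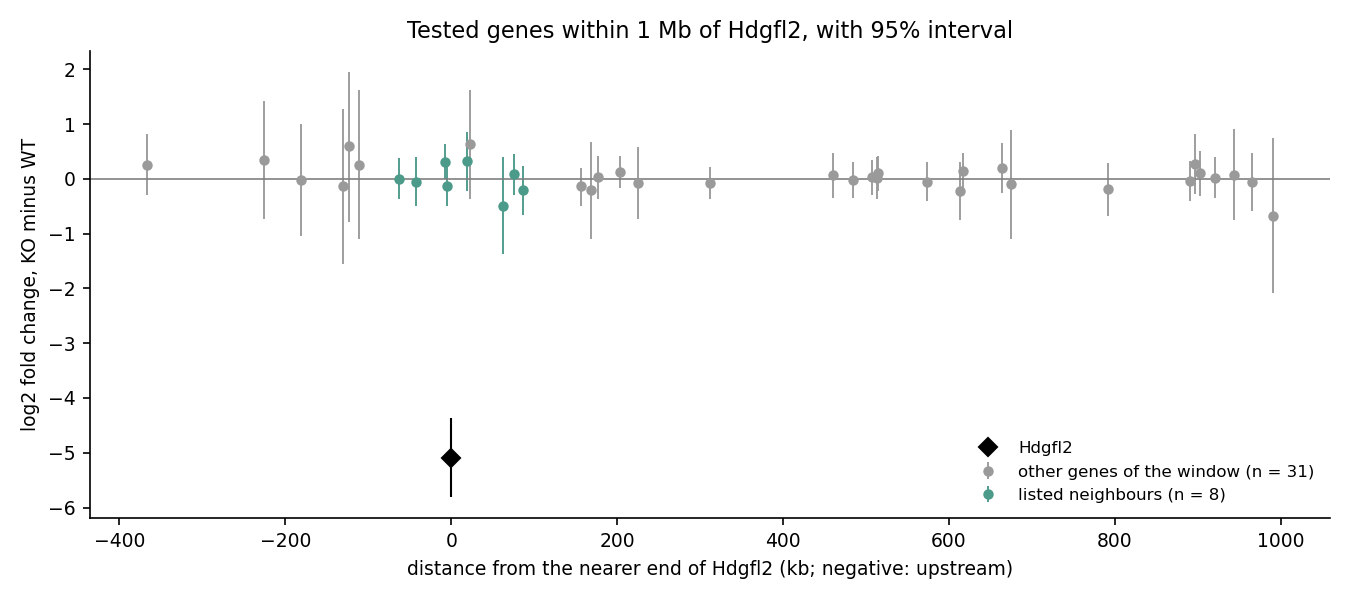
Fitted log2 fold change (KO minus WT, y axis) against the distance in kb from the nearer end of *Hdgfl2* (x axis, negative before its start) for the 39 tested genes within 1 Mb, with 95% intervals from edgeR's quasi-likelihood fit. *Hdgfl2* stands at −5.09, while the 8 listed neighbours (green) and 31 other genes (grey) lie between −0.67 and 0.63.

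Relatives and partners of the neighbours were read from a list of 38 genes, of which *Plin3* and *Plin4* lie within the 1 Mb window and *Plin3* is counted in both. Of these, 29 were tested, 0 passed an adjusted p under 0.25 in edgeR's quasi-likelihood test and 1 had an unadjusted p under 0.05, a share near the 3.63% of all genes. The fitted log2 fold change was positive for 19 and negative for 10, with a median of 0.04 against 0.00 over all genes. The 1 gene was *Sh3glb1*, endophilin B1, a relative of *Sh3gl1* that acts in autophagy and on mitochondrial membranes. It stood at 125.7 ± 19.1 CPM (SD, n = 3) in WT and 100.3 ± 11.1 CPM (SD, n = 4) in KO mice, a log2 fold change of −0.32 (SE 0.15, unadjusted p = 0.0426, adjusted p = 0.999 by edgeR).

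Genes that work with *Chaf1a* or *Ubxn6* give the same neighbours a setting. *Chaf1b*, the middle subunit of CAF-1, was at 15.3 ± 1.92 CPM (SD, n = 3) in WT and 13.3 ± 3.63 CPM (SD, n = 4) in KO mice, with a log2 fold change of −0.21, opposite in sign to that of *Chaf1a*. *Rbbp4*, the small subunit, had a log2 fold change of 0.04, *Pcna*, the sliding clamp that recruits CAF-1, one of 0.09, and the H3-H4 chaperone *Asf1b* one of 0.29 (unadjusted p = 0.126 by edgeR). *Vcp*, the ATPase that *Ubxn6* serves, had a log2 fold change of 0.00 at 475.8 ± 41.7 CPM (SD, n = 3) in WT and 476.3 ± 39.6 CPM (SD, n = 4) in KO mice. *Ubxn8*, another UBX domain gene, did not overlap between genotypes, at 40.1 ± 2.48 CPM (SD, n = 3) and 50.8 ± 6.19 CPM (SD, n = 4), with an unadjusted p of 0.0645 by edgeR. It was the 1 relative of the 29 tested without overlap, or 3.45%, where 5.16% of all genes did not overlap.

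For the other families the gene with the smallest p-value is given. *Plin2*, the widespread lipid droplet coat gene related to *Plin5*, was at 41.6 ± 2.79 CPM (SD, n = 3) in WT and 53.4 ± 10.4 CPM (SD, n = 4) in KO mice, a log2 fold change of 0.36 (unadjusted p = 0.0654 by edgeR), or 0.23 without KO replicate 3. *Prep*, a prolyl peptidase related to *Dpp9*, had a log2 fold change of 0.30 (unadjusted p = 0.118 by edgeR) and *Mysm1*, a histone H2A deubiquitinase with a JAMM domain as in *Mpnd*, one of −0.29 (unadjusted p = 0.162 by edgeR). *Tnfaip8* had a log2 fold change of −0.05 and *Stap1* one of 0.00. *Nlrp1b*, the mouse sensor that DPP9 restrains, was listed at 0 reads in all 7 mice.

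Over the 7 mice the genes most like the 3 neighbours with the highest mean CPM of 3′ reads are given as a description, by Pearson's r of log2 CPM among all genes tested. For *Chaf1a* they were *E2f1* (r = 0.984, n = 7), a transcription factor of the G1 to S transition, *Ier5* (r = 0.979) and *Ifrd1* (r = 0.962). For *Mydgf* they were *Noa1* (r = 0.985), *Pla2g4c* (r = 0.977) and *Foxd2* (r = 0.974), and for *Mpnd* they were *Ldah* (r = 0.958), *Lck* (r = 0.957) and *Gm14207* (r = 0.945). These are the highest values out of 11265 genes over only 7 libraries, which differed in depth and in their share of *Rn45s*, and the genotypes are pooled in them. Among the 8 neighbours themselves the median r of a pair was 0.0689 over the 7 mice.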

How the data were processed

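RNA was measured in lin- bone marrow cells of 3 *HRP-2* wild type and 4 knockout mice, grouped by the genotype in the sample labels. Per their methods, the authors sequenced from the 3′ end, used STAR with GRCm38 as the genome and quantified genes on an Ensembl annotation. The tally rows of the files are laid out as those of another counting program and some symbols, such as *Rn45s*, are absent from GENCODE M21, so the counter and annotation behind the counts are uncertain, which bears on overlapping genes. The deposited values are whole-number counts of reads per gene symbol, not normalized. The tally rows at the end, with from 27.0% to 31.6% of reads on no gene and 1.99% to 2.4% ambiguous, were left out.

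TMM factors, the filterByExpr filter and the robust quasi-likelihood test came from edgeR 4.0.16 in R 4.3.3, with Benjamini-Hochberg adjustment over all 11265 genes. The biological coefficient of variation was 21.3%. Standard errors were the absolute log2 fold change over the root of F. Single values were compared by two-sided exact permutation over the 35 splits of mice.

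The members and lists were chosen with earlier results of these data known. Named genes were *Hdgfl2*, the 10 neighbours, the nearest genes and those with p under 0.05 or no overlap within 1 Mb, markers, the smallest p of each family of relatives and the 3 genes most like each of 3 neighbours. *Sema6b*, *Gm11110*, *Chaf1b*, *Rbbp4*, *Pcna*, *Vcp*, *Nlrp1b*, *Xist* and *Ddx3y* were named after their values were seen. Of the listed symbols, 97.6% were found in GENCODE M21 and 98.2% in RefSeq. Libraries of a genotype differed beyond sampling noise. The labels call the replicates biological. Alternatives were DESeq2 1.42.0, limma-voom 3.58.1, other scaling factors and filters, *Rn45s* left out, the replicate block and each mouse left out. The values of marker genes, relatives and summed pairs without KO replicate 3 were added after the data had been seen.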

Additional observations from a re-analysis of the deposited data

Results flagged for a closer look

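*Sh3gl1* in KO replicate 3 stood at 38.3 CPM, far from the other KO mice at 26.8, 27.4 and 28.2 CPM. The gap to the nearest mouse was 0.884 of the range of the group, above Dixon's critical value at the 95% level for 4 samples. Of 9 groups tested in this way, 1 was past the limit, where chance gives 0.45. The same mouse was the one with *Xist* at 0.561 CPM.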

How the results depend on the processing

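At an adjusted p under 0.25, 0 neighbours and 0 genes of the 1 Mb window were called in all alternatives tried, and with 250 kb in place of 1 Mb. The smallest adjusted p of a neighbour over these was 0.949, with no filter on low counts. *Hdgfl2* kept its call in the 15 alternatives that tested it, from −5.62 to −4.86, and a filter of at least 10 reads in every mouse removed it. Over all genes the count past 0.25 was 2, and it became 41 with no filter, 21 with DESeq2, 3 with limma-voom, 1 with at least 10 reads in every mouse and 2 to 7 when a mouse was left out. With the replicate number as a block it was 1, neighbours called were 0 and the neighbours' median was 0.01. Same-numbered mice had correlations of deviations of −0.0237, −0.192 and −0.144, and those of differently numbered mice ran from −0.116 to 0.199. A pairing by number was not seen, but so few values cannot exclude a shared litter or batch.

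The number of neighbours with a positive fold change was 2 to 6 when a mouse was left out, 2 without WT replicate 3. Neighbours without overlap numbered 1 to 2, and the second was *Ubxn6*, without WT replicate 3, where 11.6% of all genes did not overlap. *Chaf1a* ran from 0.22 to 0.39 and did not overlap in any of the fits. Its genotypes were already apart with no mouse left out. Leaving a mouse out could therefore hardly make them overlap, and those fits do not test the separation. In them the share of all genes without overlap was from 8.98% to 13.2%, against 5.16% with no mouse left out. *Mpnd* was −0.01 with upper-quartile factors and with limma-voom. With a mouse left out, the neighbours' median ran from −0.14 to 0.10, *Lrg1* from 0.12 to 0.49, *Dpp9* from −0.39 to −0.06, *Ubxn6* from −0.25 to −0.02, *Mpnd* from −0.12 to 0.10, *Sh3gl1* from −0.19 to 0.10, *Tnfaip8l1* from −0.78 to 0.11 and *Mydgf* from −0.04 to 0.20. The causes were not tested. Depth limits *Stap2* and *Plin5*, and the 3′ reads limit the overlapping pairs.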
